A study of Homo sapiens with 12 samples.

Results

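Mitochondrial DNA is a small circular genome that sits inside the mitochondrion, is present in many copies per cell, and is read from both of its strands into long transcripts. The transfer RNAs lie between most of the other genes, and cutting them out releases the messenger RNAs and ribosomal RNAs, a scheme known as tRNA punctuation. The messenger RNAs encode subunits of respiratory complexes I, III and IV and of the ATP synthase (complex V), and the transfer RNAs and ribosomal RNAs serve the mitochondrion's own translation. The genes described here are the rows of the deposited count table whose symbol starts with MT-, which were 35 of 57500 rows. They comprise 13 messenger RNA genes and 22 transfer RNA genes. The 2 ribosomal RNA genes were not analysed here. All 35 gene IDs were found in the GENCODE 29 annotation of GRCh38, which lists 37 genes on mitochondrial DNA.

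Total RNA of 3 human cancer cell lines was sequenced after ribosomal RNA depletion and DNase treatment, in 12 libraries that form 4 groups of 3 biological replicates. SW480 (from a primary colorectal tumour) and SW620 (from a metastatic site of the same patient) grew untreated in DMEM. PEO4, an ovarian cancer line, grew in RPMI 1640, either in control medium or with recombinant human TGF-β, a growth factor, at 10 ng/mL for 6 days. Both media held serum and antibiotics. The SW lines stand for 1 patient and PEO4 for another, so a difference between lines is not a difference between tumour types. The series compared SW620 with SW480 and treated with control PEO4. The labels do not say whether replicates came from separate thaws or passages, so p-values measure the spread between these libraries.

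Libraries held 14531420 to 22028956 counts. The 8 markers of the PEO4 line summed to between 4637 and 7863 counts per 1000000 gene counts (CPM) in control PEO4, 2403 to 4059 CPM with TGF-β and at most 134 CPM in the SW lines. MUC16 supplied most of that sum, at 3569 to 6766 CPM in control PEO4. In edgeR 6 of the 8 were higher in PEO4 than in SW480 and 5 of 8 higher than in SW620, while MECOM was lower than in both lines and SOX17 lower than in SW620. The 8 colorectal markers summed to 539 to 606 CPM in SW620, to 113 to 157 CPM in SW480 and to at most 12.1 CPM in PEO4, where CDX1 was at 0. Blood cell markers summed to at most 5.90 CPM and fibroblast markers to at most 19.0 CPM. In SW620 replicate 3 the estrogen receptor gene ESR1 had 48 counts, 0.884% of its level in control PEO4, against 2 to 9 counts in the other 5 SW libraries. EMX2, another of these markers, did not single that library out, with 15 counts there and the highest level, 1.83% of that in control PEO4, in SW480 replicate 2.

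The transfer RNAs on which the line differences turn are shown first, since 6 of these 7 sit on the strand that carries few other genes. Of the 35 genes, 9 are annotated on the minus strand of the reference, namely MT-ND6 and 8 transfer RNA genes (MT-TQ, MT-TA, MT-TN, MT-TC, MT-TY, MT-TS1, MT-TE and MT-TP). The other 14 transfer RNA genes and 12 messenger RNA genes are on the plus strand. Sequences are those of GENCODE 29 (GRCh38), written 5′ to 3′ as DNA letters of the RNA strand, with the anticodon in capitals.
MT-TA (alanine, chrM:5587-5655, minus): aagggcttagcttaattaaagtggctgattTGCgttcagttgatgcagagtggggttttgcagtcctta
MT-TN (asparagine, chrM:5657-5729, minus): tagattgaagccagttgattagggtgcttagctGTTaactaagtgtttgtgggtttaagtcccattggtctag
MT-TC (cysteine, chrM:5761-5826, minus): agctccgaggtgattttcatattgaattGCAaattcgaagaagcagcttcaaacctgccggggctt
MT-TY (tyrosine, chrM:5826-5891, minus): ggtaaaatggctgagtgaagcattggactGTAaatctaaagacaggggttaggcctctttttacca
MT-TE (glutamate, chrM:14674-14742, minus): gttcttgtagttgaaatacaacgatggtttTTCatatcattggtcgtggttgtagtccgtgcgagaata
MT-TP (proline, chrM:15956-16023, minus): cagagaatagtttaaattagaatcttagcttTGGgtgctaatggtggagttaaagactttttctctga
MT-TT (threonine, chrM:15888-15953, plus): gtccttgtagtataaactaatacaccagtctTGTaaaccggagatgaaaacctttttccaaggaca

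MT-TA, MT-TN, MT-TC and MT-TY form one block between MT-TW and MT-CO1. Within it 1 base separates MT-TA from MT-TN, MT-TC and MT-TY share 1 base, and 31 bases lie between MT-TN and MT-TC. That gap is known as the origin from which the light strand is copied. MT-TP ends the annotated genes, beside the control region that holds the promoters. Adjacent genes on mitochondrial DNA share transcripts, so counts of neighbours are not independent measurements. Whether counting used the strand, and how reads over 2 genes were assigned, is not stated, so reads of a transfer RNA and of an unspliced transcript running through it, on either strand, cannot be told apart.

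A pair of messenger RNA genes also overlaps. MT-ATP8 and MT-ATP6, both subunits of the ATP synthase, share 46 bases on the plus strand, shown because their counts depend on how reads in it were assigned, with the start codon of MT-ATP6 in capitals.
MT-ATP8 and MT-ATP6 overlap (chrM:8527-8572, plus): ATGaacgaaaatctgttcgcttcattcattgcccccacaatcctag
MT-ND4L and MT-ND4, which encode complex I subunits and are known to be carried on 1 messenger RNA, share 7 bases. The ratio of MT-ND4 to MT-ND4L counts stayed between 5.16 and 5.84 over the 12 libraries. The ratio of MT-ATP6 to MT-ATP8 counts ran from 2.70 to 3.70, with 3.51 ± 0.0739 (SD, n = 3) in control PEO4 and 2.89 ± 0.243 in SW620. These ranges do not measure how far the assignment of reads in the overlaps shifted the counts, which was not tested.

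Genes of mitochondrial DNA took 7.59% to 14.3% of all gene counts in a library. The 3 control PEO4 libraries gave 11.3%, 12.9% and 10.9%, a mean of 11.7% ± 1.06 (SD, n = 3). With TGF-β the shares were 11.5%, 11.996% and 10.7%, a mean of 11.4% ± 0.674. SW480 replicates 1, 2 and 3 gave 8.41%, 14.3% and 11.7%, a mean of 11.4% ± 2.94, and SW620 gave 7.59%, 12.8% and 8.69%, a mean of 9.70% ± 2.76. All 4 groups overlapped, and the SW libraries spread more widely than the PEO4 libraries. The 95% Wilson interval of each share was at most 0.0179 percentage points to either side, which covers counting error only. In bulk RNA, fewer cells holding a transcript and less of it per cell cannot be told apart. Replicate 2 had the highest share in each SW line. Those 2 libraries were also the shallowest, at 14712953 and 14531420 counts, and had the highest summed level of the 4 nuclear-retained RNAs, at 15803 and 17122 CPM against 4052 to 11124 CPM in the other SW libraries. The part of depth and of nuclear RNA content in the SW shares was not tested.

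Messenger RNAs supplied nearly all of these counts. Transfer RNA genes took 0.113% ± 0.00782 of all counts in control PEO4 and 0.0980% ± 0.00184 after TGF-β, but only 0.0476% ± 0.0134 in SW480 and a similar 0.0497% ± 0.0101 in SW620 (SD, n = 3 each). The lowest PEO4 library, at 0.0966%, lay above the highest SW library, at 0.0618%. Per 1000 messenger RNA counts there were 9.73 ± 0.241 transfer RNA counts in control PEO4 and 8.70 ± 0.450 with TGF-β. SW480 had 4.17 ± 0.217 and SW620 5.23 ± 0.511. On this second scale the spread within the SW lines was small, and SW480 (3.93 to 4.35), SW620 (4.80 to 5.80) and PEO4 (8.41 to 9.95) did not overlap. These sums describe the libraries and carry no test.

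**Figure D1:**
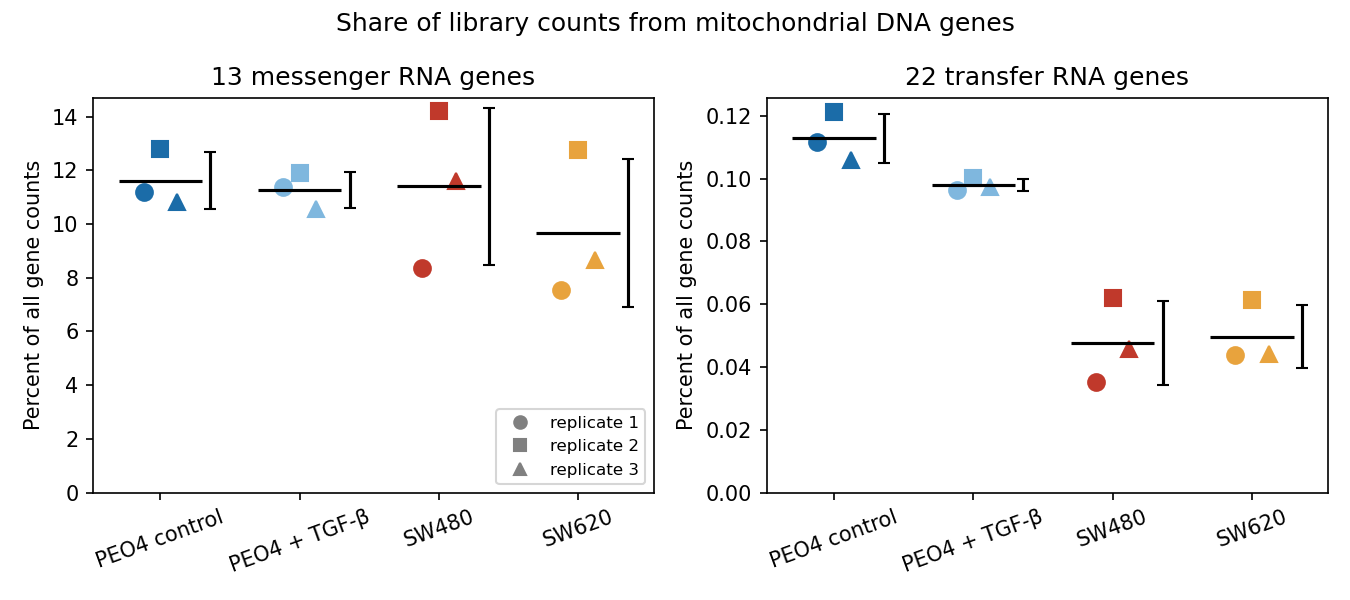
Percent of all gene counts (y axis, from 0) assigned to the 13 messenger RNA genes (left) and the 22 transfer RNA genes (right) of mitochondrial DNA, by group. Each symbol is 1 library with its shape giving the replicate, the line is the mean and the bar beside it the SD of 3 libraries. Messenger RNA shares overlap in all groups, while every PEO4 library lies above every SW library in the transfer RNA share.

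MT-CO1, the catalytic subunit of cytochrome c oxidase (complex IV), was the most abundant of these genes, with a mean of 28588 CPM over the 12 libraries. MT-ND4, a complex I subunit, followed at 16255 CPM. Per kilobase of gene, the level of MT-CO1 was 18540 CPM per kb, followed by MT-ATP8 (13648), MT-ATP6 (13517) and MT-CO2 (13482), which lay close together. The lowest per kilobase were MT-ND6 (3472), the one messenger RNA of the minus strand, and MT-ND3 (3062). Together the 7 complex I messenger RNAs made up 37.5% to 44.98% of the messenger RNA counts and the 3 complex IV messenger RNAs 39.9% to 46.0%. MT-CYB, which encodes cytochrome b of complex III, made up 3.47% to 8.31%.

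The pool of 13 messenger RNAs was stable in composition even where its total was not. For each gene the SD of log2 CPM between replicates was computed, and its median over the 13 genes was 0.38 in SW480 and 0.42 in SW620. The median SD of the log2 share of the pool was 0.04 in SW480 and 0.08 in SW620. In PEO4 the corresponding medians were 0.14 and 0.06 in control cells and 0.10 and 0.06 with TGF-β. The replicates of the SW lines thus differed mainly in the total and much less in the proportions of the messages.

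**Figure D2:**
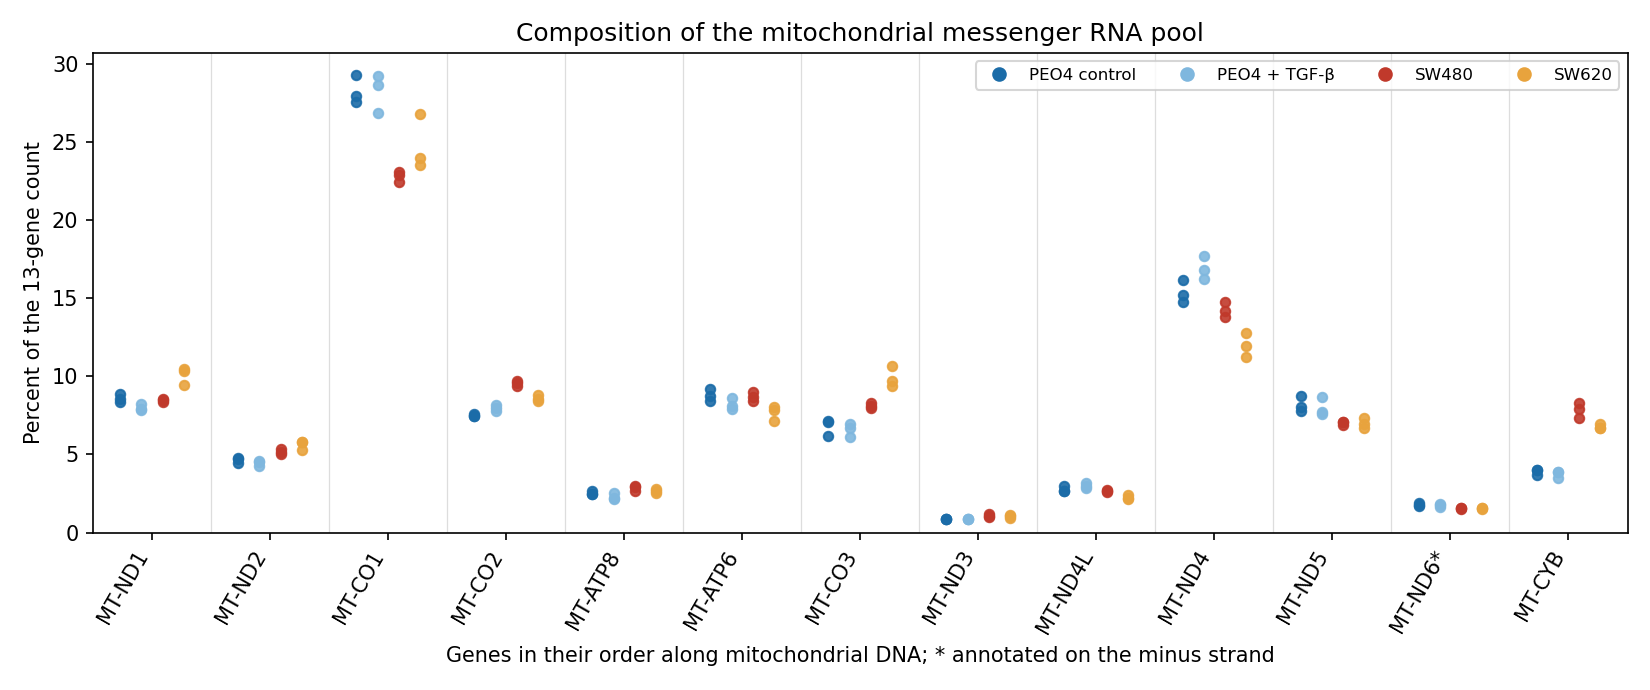
Percent of the summed count of the 13 mitochondrial messenger RNA genes (y axis, from 0) held by each gene, in gene order along mitochondrial DNA. Each point is 1 of 12 libraries, coloured by group. MT-CYB lies between 3.47% and 3.98% in the 6 PEO4 libraries and between 6.69% and 8.31% in the 6 SW libraries, and points of 1 group lie close together for most genes.

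Transfer RNA genes differed from each other by a wide range of CPM. The 5 highest means over the 12 libraries were those of MT-TN (506 CPM), MT-TC (124 CPM), MT-TP (38.0 CPM), MT-TY (28.8 CPM) and MT-TA (11.7 CPM), all of them on the minus strand. MT-TN alone held 54.1% to 72.5% of the transfer RNA counts of a library. The 8 minus-strand genes together held 87.6% to 96.9%. The other 17 transfer RNA genes had means between 0.330 CPM (MT-TD) and 9.11 CPM (MT-TL2), and MT-TV had no count in SW480 replicate 2, where 3 counts would be 0.204 CPM. Mature transfer RNAs are short and folded, and the capture of such RNA by this library type was not tested.

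**Figure D3:**
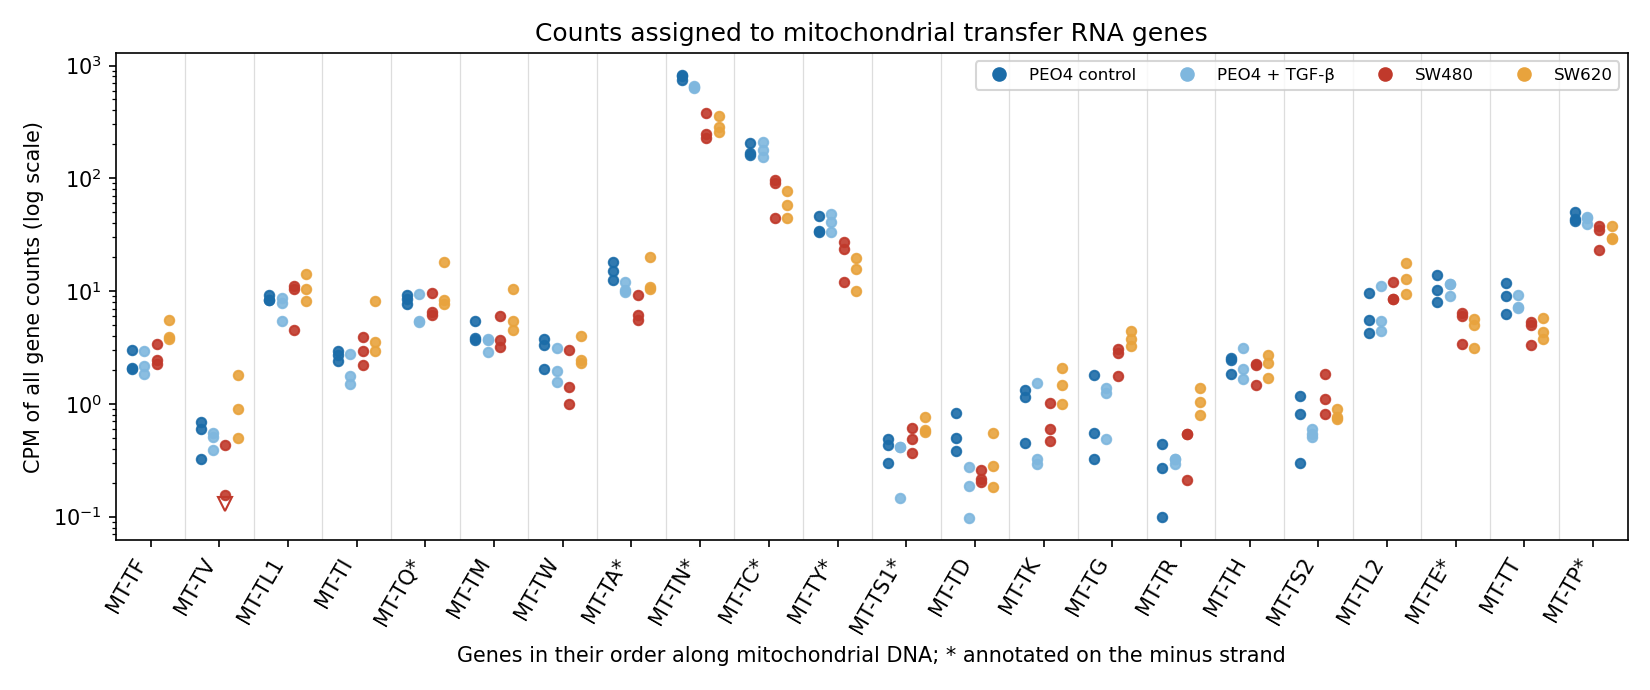
CPM of all gene counts (log axis) for the 22 mitochondrial transfer RNA genes in gene order, with an asterisk for the minus strand. Each point is 1 library coloured by group, and the open triangle marks MT-TV at a count of 0 in SW480 replicate 2. MT-TN stands highest in every library, at 225 to 822 CPM.

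The first designed comparison asked how SW620, from the metastatic site, differs from SW480. No messenger RNA of mitochondrial DNA was called different between the lines relative to all RNA in the main fit, which took replicates as unpaired. In edgeR's quasi-likelihood test with Benjamini-Hochberg adjustment over all 20941 genes tested, 0 of 13 passed an adjusted p of 0.05, where 30.5% of all genes tested did. DESeq2 called 0 of 13 as well, and none had an unadjusted p under 0.05 in edgeR. With a model term for the replicate number (a replicate block), MT-ND3, MT-ND4, MT-ND4L, MT-CYB, MT-CO2, MT-ATP6 and MT-ATP8 passed. All of them were lower in SW620 (edgeR adjusted p = 0.00255 to 0.0350). In that fit 10667 of the 20941 genes tested passed, so such a call by itself sets no gene apart. Same-numbered replicates did not all deviate together, so the numbers were not taken as pairs. All 13 fitted (not called) log2 fold changes of SW620 over SW480 lay below 0, from -0.53 ± 0.33 (SE) for MT-ND4 to -0.01 ± 0.28 for MT-CO3, with a median of -0.32 beside 0.03 for all genes tested and adjusted p from 0.215 to 0.978. With total counts as library size, 11 of 13 were below 0. No messenger RNA had CPM ranges that failed to overlap, against 46.0% of all genes tested, and the SE values of 0.21 to 0.33 show how little a change of this size could be told from replicate spread.

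The complex I genes and their neighbours show the pattern in single libraries. MT-ND4 was at 11548, 20988 and 16476 CPM in SW480 and at 8480.09, 16308 and 10338 CPM in SW620. The lines overlapped, with replicate 2 the highest of each. MT-CYB stood at 6616, 10453 and 9647 CPM in SW480 and at 5055, 8547 and 6029 CPM in SW620. Its log2 fold change was -0.50 ± 0.29 (SE; edgeR adjusted p = 0.243), again with overlapping ranges. MT-ND1, the complex I subunit gene nearest the ribosomal RNA genes, differed by -0.03 ± 0.31 (edgeR adjusted p = 0.960).

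Among the transfer RNAs, MT-TA rose in SW620. Its values were 5.58, 9.18 and 6.11 CPM in SW480 and 10.4, 20.2 and 10.9 CPM in SW620, so every SW620 library was above every SW480 library. The log2 fold change was 0.93 ± 0.28 (SE), or 1.91-fold, with an edgeR adjusted p of 0.0317. It rested on 183 to 293 counts in the SW620 libraries and on 103 to 135 in those of SW480. Leaving out SW480 replicate 1, SW480 replicate 3 or SW620 replicate 2 gave edgeR adjusted p of 0.114, 0.105 and 0.0563, above the threshold in each case, with log2 fold changes of 0.83, 0.88 and 0.73. In the authors' deposited table of this comparison, MT-TA was the only one of 33 listed genes of mitochondrial DNA with an adjusted p under 0.05, at a log2 fold change of 0.93 and an adjusted p of 0.00951. That table was made from the same libraries, so it is not separate support. Its share of called genes over all genes was not computed, and in edgeR that share was 30.5%.

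The remaining transfer RNAs did not pass the test. Of 22, 20 had enough counts to be tested, 1 was called higher and 0 lower, and 3 had an unadjusted p under 0.05. The background is 13.5% of genes called higher and 17.0% called lower, and 8524 of the 20941 genes tested had an unadjusted p under 0.05. MT-TF, MT-TG and MT-TR had, like MT-TA, CPM ranges that did not overlap and were higher in SW620, which makes 4 of 20 against 46.0% of all genes tested. MT-TN, the most abundant, was at 225, 379.9 and 247 CPM in SW480 and at 285, 359 and 259.6 CPM in SW620. Its log2 fold change was 0.04 ± 0.21 (SE; edgeR adjusted p = 0.902). MT-TC (-0.42 ± 0.30) and MT-TY (-0.50 ± 0.33), from the same block as MT-TA, had fitted values below 0 with adjusted p of 0.342 and 0.294.

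A second fit took the sum of the 13 messenger RNA counts as the library size, which asks how a gene differs from the other mitochondrial messages. On that scale 23.4% of all genes tested were called, and 0 of 13 messenger RNAs. In shares of the pool, 8 of 13 did not overlap between the lines, where 32.5% of all genes tested did not on the same scale. Dividing by the pool takes the replicate spread of its total out of its own genes but not out of other genes. That percentage is therefore not a like background for these genes. MT-ND1, MT-CO1 and MT-CO3 held larger shares in SW620, and MT-CO2, MT-ATP6, MT-ND4L, MT-ND4 and MT-CYB smaller ones. MT-CO3 took 8.32%, 7.98% and 8.09% of the pool in SW480 and 10.7%, 9.35% and 9.72% in SW620. MT-ND4 took 13.8%, 14.8% and 14.2% in SW480 and 11.2%, 12.8% and 11.95% in SW620. The fitted log2 difference was 0.29 ± 0.36 (SE) for MT-CO3 and -0.25 ± 0.35 for MT-ND4, with edgeR adjusted p of 0.624 and 0.664. These SE values draw on the spread of all genes relative to the pool, 0.34 to 0.42 over the 13 genes, and exceed the SD of the log2 shares themselves, whose median was 0.04 in SW480 and 0.08 in SW620. An exact permutation test of 3 against 3 libraries cannot go below 0.10, so the shares are given without a test of their own.

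Against the pool, 14 of 20 transfer RNAs tested had ranges that did not overlap, all higher in SW620. Of all genes tested, 32.5% did not overlap in either direction, which is not a like background for genes of mitochondrial DNA. MT-TA passed the test at 1.20 ± 0.40 (SE, log2; edgeR adjusted p = 0.0161), as 1 of 20, with 0 lower, against 13.6% of genes called higher and 9.83% called lower on this scale. Without SW480 replicate 2 or SW480 replicate 3 its adjusted p was 0.0502 and 0.129. Of the 14, 10 were plus-strand genes, among them MT-TR (1.49 ± 0.68, adjusted p = 0.0992) and MT-TF (0.98 ± 0.46, adjusted p = 0.107), and 4 were minus-strand genes. The median log2 value over all genes tested was itself 0.31 on this scale, so part of each positive value is shared by most genes.

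**Figure D4:**
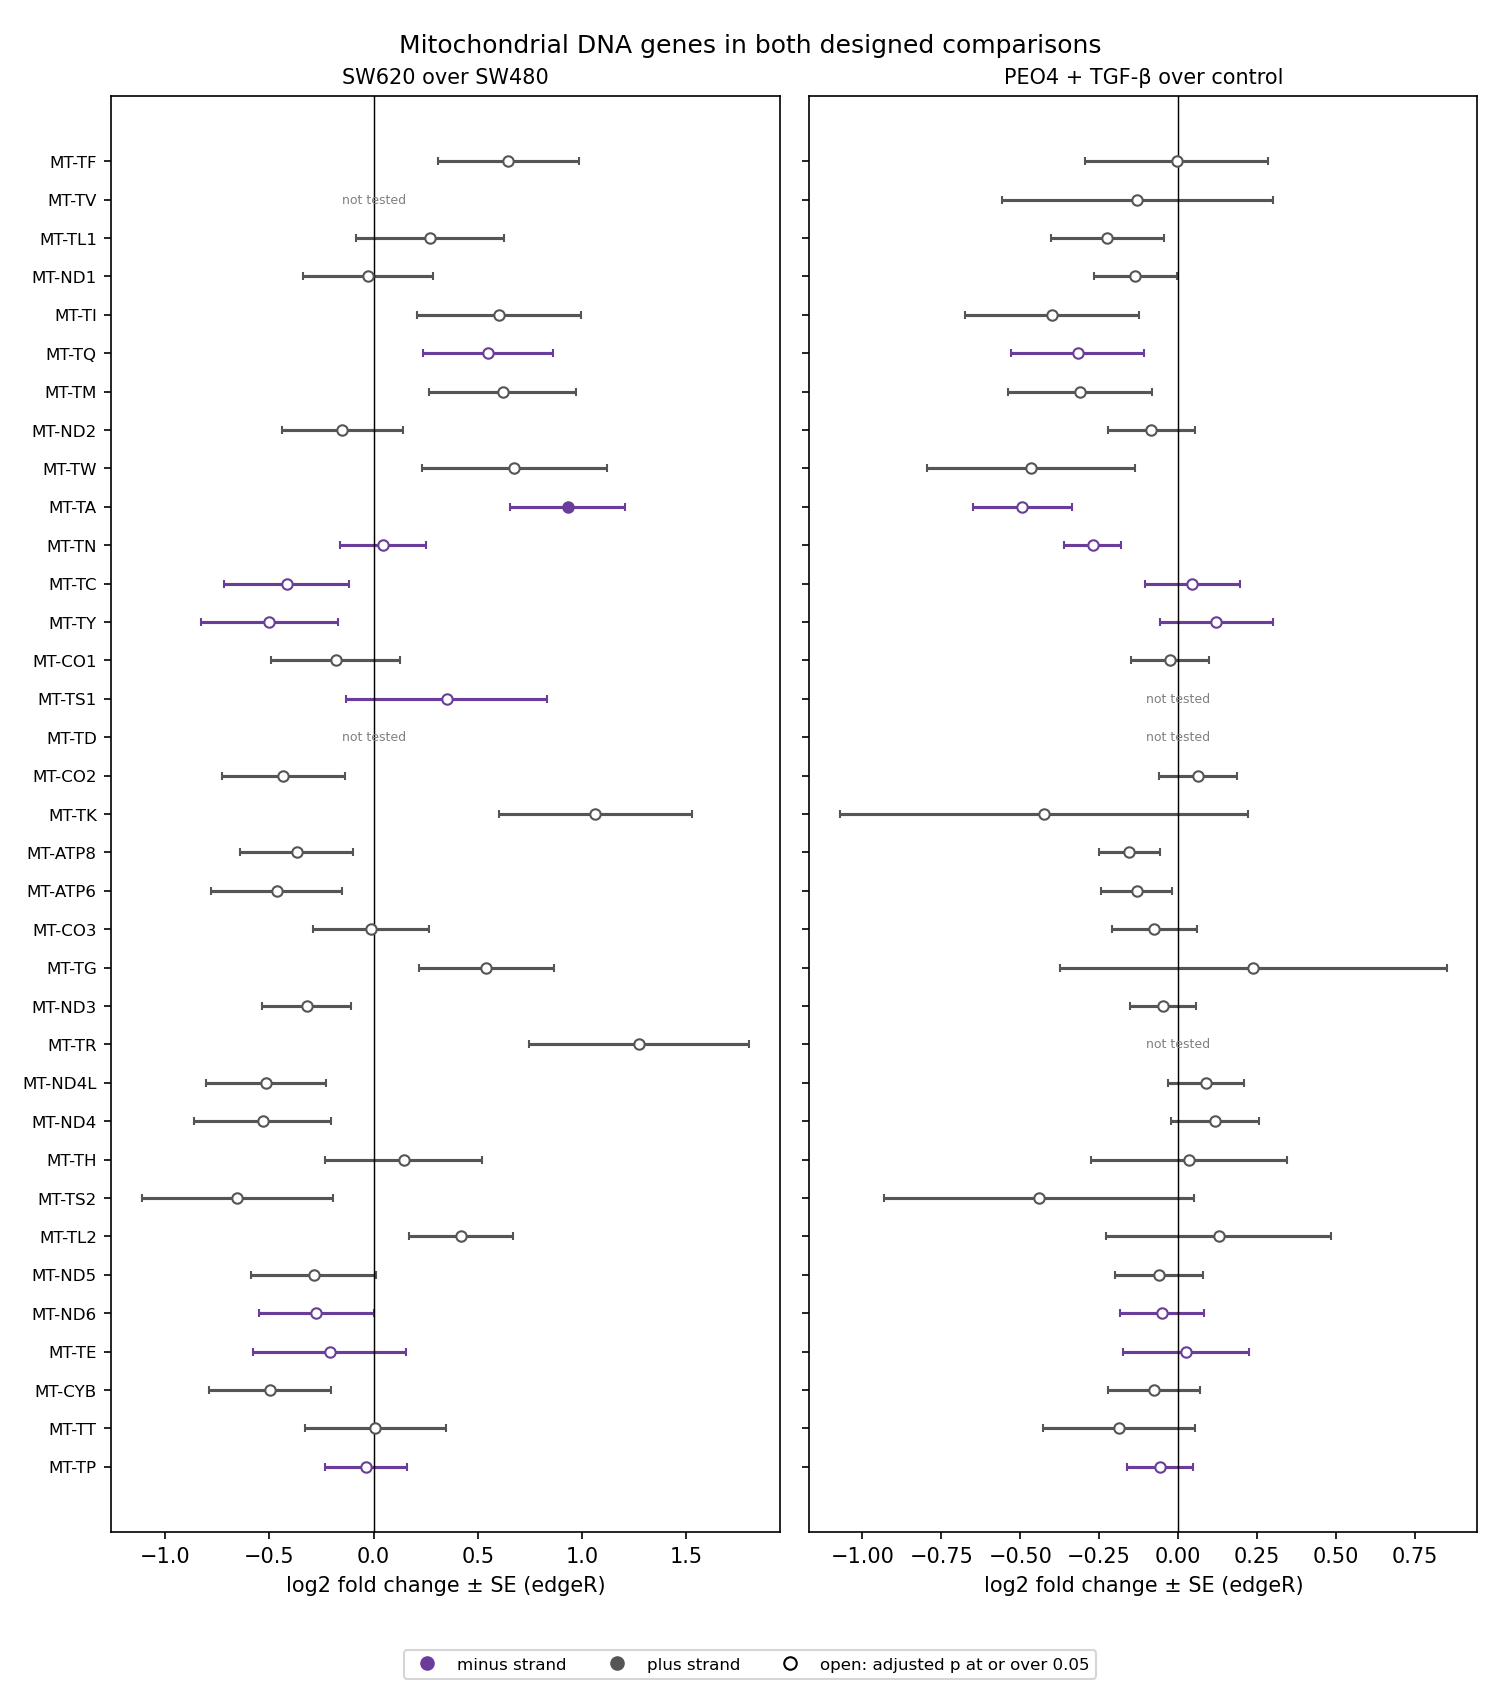
Log2 fold change with its SE (x axis) for the 35 genes in order along mitochondrial DNA, for SW620 over SW480 (left) and for treated over control PEO4 (right), from edgeR fits to all genes. Filled points passed an adjusted p of 0.05, and purple marks the minus strand. MT-TA in the SW lines, at 0.93, is the only filled point, and the horizontal scales differ between the panels.

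Nuclear genes supply the polymerase, the processing enzymes and the ribosome proteins that mitochondrial DNA lacks, and several of these rose in SW620 over SW480. These lists were chosen with earlier results of these data known, and their counts stand beside 13.5% of all genes called higher and 17.0% called lower. Of 17 genes of mitochondrial transcription and genome maintenance, 5 rose and 0 fell, with a median log2 fold change of 0.45 beside 0.03 for all genes tested. TFAM, which packages mitochondrial DNA and starts its transcription, stood at 49.0 ± 10.2 CPM in SW480 and at 125 ± 23.1 CPM in SW620 (SD, n = 3). Its log2 fold change was 1.31 ± 0.26 (SE; edgeR adjusted p = 0.00486). TFB1M, an rRNA methyltransferase, rose by 1.04 ± 0.18 and TOP1MT, the mitochondrial topoisomerase, by 0.89 ± 0.18 on the log2 scale (edgeR adjusted p = 0.00223 and 0.00509). POLRMT, the mitochondrial RNA polymerase, rose by 0.55 ± 0.18 (edgeR adjusted p = 0.0486), but DESeq2 did not call it (adjusted p = 0.0953). In edgeR the call was lost without any 1 library other than SW620 replicate 2 (adjusted p = 0.0806 to 0.165). It was also lost with DESeq2's size factors (edgeR adjusted p = 0.0535) and without the filter on low counts (0.0885). The count of 5 went to 3 without any 1 SW480 library or without SW620 replicate 1, and without SW620 replicate 3 it was 4 with 1 lower (RNASEH1).

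Of 36 genes of mitochondrial RNA processing and stability, 10 rose and 0 fell, with a median of 0.20. PTCD2, a pentatricopeptide protein, PUS1, a pseudouridine synthase that modifies transfer RNA, and SUPV3L1, the helicase of the RNA-degrading complex, rose by 1.05 ± 0.15, 0.999 ± 0.17 and 1.07 ± 0.21 (SE, log2; edgeR adjusted p = 0.000949, 0.00187 and 0.00444). LRPPRC, which stabilises mitochondrial messages, had a log2 fold change of 0.47 ± 0.22 and did not pass (edgeR adjusted p = 0.147), although it did without SW620 replicate 2 (0.70, adjusted p = 0.0188). The count of 10 went to 5 without SW480 replicate 1 or SW620 replicate 1 and to 6 without SW480 replicate 3. The 0 that fell became 3 without SW620 replicate 3 (SLIRP, REXO2 and PTCD1, with 8 higher), and genes named for such counts were named after their values were seen. Among 19 mitochondrial aminoacyl-tRNA synthetases, which load amino acids onto transfer RNAs, 4 rose. KARS, which serves both cytosol and mitochondrion, led these at 1.74 ± 0.25, followed by WARS2 at 0.90 ± 0.17 and VARS2 at 0.67 ± 0.16 (edgeR adjusted p = 0.000884, 0.00396 and 0.0132). Without SW480 replicate 1 or SW480 replicate 3 the count was 2, and VARS2 had an adjusted p of 0.0737 and 0.0800. Without SW620 replicate 2 it was 11. With total counts as library size it was 8, and with all 12 libraries in 1 model 9.

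Other nuclear genes moved both ways. Of 78 mitoribosomal protein genes, 9 rose and 5 fell, and the smallest adjusted p were those of MRPS6 (-1.68 ± 0.17), MRPS30 (1.38 ± 0.22) and MRPL42 (1.12 ± 0.18), each of which passed with every library left out in turn. The 9 rises became 3 without SW480 replicate 1, 5 without any 1 of SW480 replicates 2 and 3 and SW620 replicates 1 and 3, and 21 without SW620 replicate 2. The 5 falls became 2 without SW480 replicate 1 or 3 or SW620 replicate 1. Without SW620 replicate 3 the balance turned, to 5 higher and 9 lower, and total counts gave 17 higher and 8 lower. Of 10 regulators of mitochondrial biogenesis 2 rose and 2 fell. PPRC1, a coactivator related to PGC-1α, rose by 0.63 ± 0.17. Of the fits with 1 library left out, only that without SW620 replicate 2 kept the call (edgeR adjusted p = 0.0550 to 0.124 otherwise). PPRC1 was also lost without the filter on low counts (edgeR adjusted p = 0.0574). The 2 rises, PPRC1 and MYC, became 0 without any 1 library other than SW620 replicate 2, and 4 without that one. PPARGC1A, the coactivator PGC-1α, fell by 1.86 ± 0.47 on the log2 scale, from 2.63 ± 0.762 to 0.716 ± 0.279 CPM (edgeR adjusted p = 0.0160, and 0.0935 without SW480 replicate 1). ESRRG, an orphan nuclear receptor, was also called lower in SW620, at 0.0303 ± 0.0524 CPM against 10.2 ± 5.64 CPM in SW480.

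The second designed comparison asked what TGF-β changes in PEO4. None of the 35 genes was called in the main fit, which again took replicates as unpaired. Of the 13 messenger RNAs, 0 passed in edgeR, 0 in DESeq2 and 0 had an unadjusted p under 0.05 in edgeR, and 2.26% of all 19064 genes tested were called (1.27% higher and 0.991% lower). Log2 fold changes of treated over control cells ran from -0.15 ± 0.10 (SE) for MT-ATP8 to 0.12 ± 0.14 for MT-ND4, with adjusted p between 0.469 and 0.942. The SE of these values was at most 0.15, lower than in the SW lines. MT-CO1 was at 30874, 35824 and 31702 CPM in control cells and at 30572, 34085 and 30877 CPM with TGF-β, and the groups overlapped. MT-ATP8 was the only messenger RNA whose CPM ranges did not overlap, lower with TGF-β, against 20.7% of all genes tested.

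Transfer RNAs were likewise not called after TGF-β, in 0 of 19 tested by edgeR and by DESeq2. MT-TA and MT-TN had an unadjusted p under 0.05 in edgeR and lay lower in all 3 treated libraries than in all 3 controls. Of all 19064 genes tested, 3175 had an unadjusted p under 0.05, and 20.7% had CPM ranges that did not overlap in either direction. MT-TN was at 809, 822 and 739 CPM in control cells and at 651, 629.7 and 665 CPM with TGF-β, a log2 fold change of -0.27 ± 0.09 (SE; edgeR adjusted p = 0.172). MT-TA was at 14.9, 17.99 and 12.7 CPM in control cells and at 9.79, 10.3 and 12.1 CPM with TGF-β, at -0.49 ± 0.16 (SE; edgeR adjusted p = 0.162). With a replicate block, which called 2102 genes in all, both were called lower (edgeR adjusted p = 0.0345 for MT-TN and 0.0378 for MT-TA). MT-TC and MT-TY, next to them on the same strand, had values of 0.05 ± 0.15 and 0.12 ± 0.18. In the authors' deposited table of this comparison none of 32 listed genes of mitochondrial DNA had an adjusted p under 0.05. That table was made from the same libraries, and its share of called genes over all genes was not computed.

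Relative to the messenger RNA pool, TGF-β gave 0 called members in edgeR beside 2.62% of all genes tested, with unadjusted p under 0.05 for 0 messenger RNAs and 1 transfer RNA. Pool shares of 3 messenger RNAs did not overlap. Among all genes tested 14.5% did not, which is not a like background for genes of the pool. MT-ND1 took 8.58%, 8.87% and 8.37% in control cells and 8.21%, 7.89% and 7.86% with TGF-β. MT-ND4 took 16.1%, 15.2% and 14.8% in control cells and 17.7%, 16.8% and 16.2% with TGF-β, with MT-CO2 also higher. The nuclear lists were read relative to all RNA, where 2.26% of all genes tested were called. Of the transcription and maintenance genes 0 of 17 were called by edgeR, and of the RNA processing genes 0 of 36. Of the biogenesis regulators 0 of 10 were called, and of the synthetases 0 of 19. DESeq2 called 2 of the biogenesis regulators lower (ESRRG and PPARGC1B), and edgeR without the filter on low counts called 3 lower (these and PPARGC1A). Over all genes, those fits called 922 and 1457 in either direction. POLRMT (0.12), TFAM (-0.12) and LRPPRC (-0.22) had small log2 fold changes. MRPL52 was the only 1 of 77 mitoribosomal protein genes tested that rose, beside 1.27% of all genes tested. Its log2 fold change was 0.57 ± 0.10 (SE; edgeR adjusted p = 0.0265). MRPL52 did not pass without any 1 library other than PEO4 control replicate 1 (edgeR adjusted p = 0.0509 to 0.133). DESeq2, and edgeR with total counts as library size, also called MRPL33 lower.

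The largest differences among the genes of mitochondrial DNA separated the ovarian line from the colorectal lines. This comparison is not one the series made. It was chosen after the values were seen, the lines grew in different media, and both contrasts below use the same 3 control PEO4 libraries, so line, medium and origin cannot be told apart. Transfer RNAs of the minus strand were higher in PEO4. Summed over the 8 genes, they reached (mean ± SD of 3 libraries) 1087 ± 75.7 CPM in control PEO4 and 943 ± 17.3 CPM with TGF-β. SW480 had 434 ± 124 CPM and SW620 438 ± 85.8 CPM. The 14 plus-strand transfer RNAs summed to 42.8 ± 4.99, 37.7 ± 7.74, 42.1 ± 9.79 and 58.7 ± 15.1 CPM in the same order. Without MT-TN the minus-strand sum was still 297 ± 41.3 CPM in control PEO4 against 150 ± 48.1 in SW480 and 137 ± 37.3 in SW620.

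Against SW480, 7 of 18 transfer RNAs tested rose in PEO4 and 0 fell in edgeR, beside 30.1% of all 21006 genes called higher and 31.8% called lower. They were MT-TN, MT-TC, MT-TA, MT-TE, MT-TY and MT-TP, which are 6 of the 7 minus-strand genes tested, and MT-TT of the plus strand. Against SW620, 6 of 21 rose (MT-TC, MT-TN, MT-TY, MT-TE, MT-TT and MT-TP) and MT-TG, MT-TR and MT-TL2 fell, beside 26.5% of all 20780 genes called higher and 30.4% called lower. The minus-strand genes gave 5 of the 8 tested there, and all 3 that fell are on the plus strand. Both shares of called genes are high between these lines, so a count of calls by itself sets no gene apart. Of the transfer RNAs tested, 7 of 18 had CPM ranges that did not overlap with SW480, all higher in PEO4, beside 68.6% of all genes tested. Against SW620 it was 11 of 21, with 6 higher and 5 lower in PEO4, beside 64.6%. Those called higher were among these.

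MT-TN had the largest count. Control PEO4 held 809, 822 and 739 CPM, and no SW library exceeded 379.9 CPM. Its log2 fold change was 1.72 ± 0.18 (SE) over SW480, or 3.29-fold, and 1.57 ± 0.18 over SW620, or 2.97-fold (edgeR adjusted p = 1e-05 and 3.65e-05). MT-TC was at 162, 206 and 167 CPM in control PEO4, at 44.3, 96.3 and 90.5 CPM in SW480 and at 44.0, 77.2 and 57.7 CPM in SW620. Every PEO4 library was above every SW library, and the log2 fold changes were 1.44 ± 0.24 and 1.75 ± 0.20 (edgeR adjusted p = 0.000352 and 4.65e-05).

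MT-TY, which lies 12 bases from MT-CO1, followed its neighbour MT-TC. It was at 33.6, 46.7 and 34.4 CPM in control PEO4, at 12.1, 27.2 and 23.4 CPM in SW480 and at 10.0, 19.5 and 15.8 CPM in SW620. The log2 fold changes were 1.10 ± 0.25 and 1.504 ± 0.24 (SE; edgeR adjusted p = 0.00257 and 0.000387). MT-TP differed least of the called transfer RNAs, at 0.74 ± 0.17 and 0.67 ± 0.15 (edgeR adjusted p = 0.00323 and 0.00299), with 43.3, 50.4 and 42.2 CPM in control PEO4 and at most 37.5 CPM in the SW lines. MT-TA separated the SW lines from each other, since it rose in PEO4 over SW480 by 1.37 ± 0.22 (edgeR adjusted p = 0.000211) but was at 0.33 ± 0.25 over SW620 (edgeR adjusted p = 0.288).

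MT-TE and MT-TT flank MT-CYB on either side, MT-TE 4 bases away on the minus strand and MT-TT directly adjoining it on the plus strand. MT-TE was at 7.97, 13.9 and 10.2 CPM in control PEO4 and between 3.11 and 6.39 CPM in the 6 SW libraries. Its log2 fold changes were 1.25 ± 0.28 over SW480 and 1.36 ± 0.31 over SW620 (SE; edgeR adjusted p = 0.00222 and 0.00349). MT-TT was at 9.07, 11.7 and 6.26 CPM in control PEO4 and between 3.30 and 5.72 CPM in the SW libraries, at 1.21 ± 0.29 and 1.11 ± 0.32 (edgeR adjusted p = 0.00329 and 0.0122). Leaving out PEO4 control replicate 2 or SW620 replicate 1 gave MT-TT an adjusted p of 0.0588 and 0.0529 over SW620. In the 3 PEO4 libraries with TGF-β, which neither contrast used, the 2 genes were at 9.11 to 11.6 CPM and 7.06 to 9.16 CPM, above all SW libraries.

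The 3 genes that fell against SW620 had few counts. MT-TG, which lies between MT-CO3 and MT-ND3, had 6 to 37 counts in control PEO4 and 57 to 82 in SW620, with a log2 fold change of -1.91 ± 0.57 (SE; edgeR adjusted p = 0.0150). MT-TR, between MT-ND3 and MT-ND4L, had 2 to 9 counts against 14 to 23, at -1.80 ± 0.58 (edgeR adjusted p = 0.0230). MT-TL2 had 86 to 195 counts against 168 to 279, at -0.88 ± 0.31 (edgeR adjusted p = 0.0350), and its CPM ranges overlapped. Without PEO4 control replicate 1 the adjusted p were 0.0652, 0.119 and 0.142. MT-TR was also not called without PEO4 control replicate 2, SW620 replicate 2 or SW620 replicate 3 (adjusted p = 0.0950, 0.0633 and 0.0539). MT-TL2 was not called without any of those 3 libraries either (adjusted p = 0.126, 0.1301 and 0.102), nor with DESeq2's size factors.

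**Figure D5:**
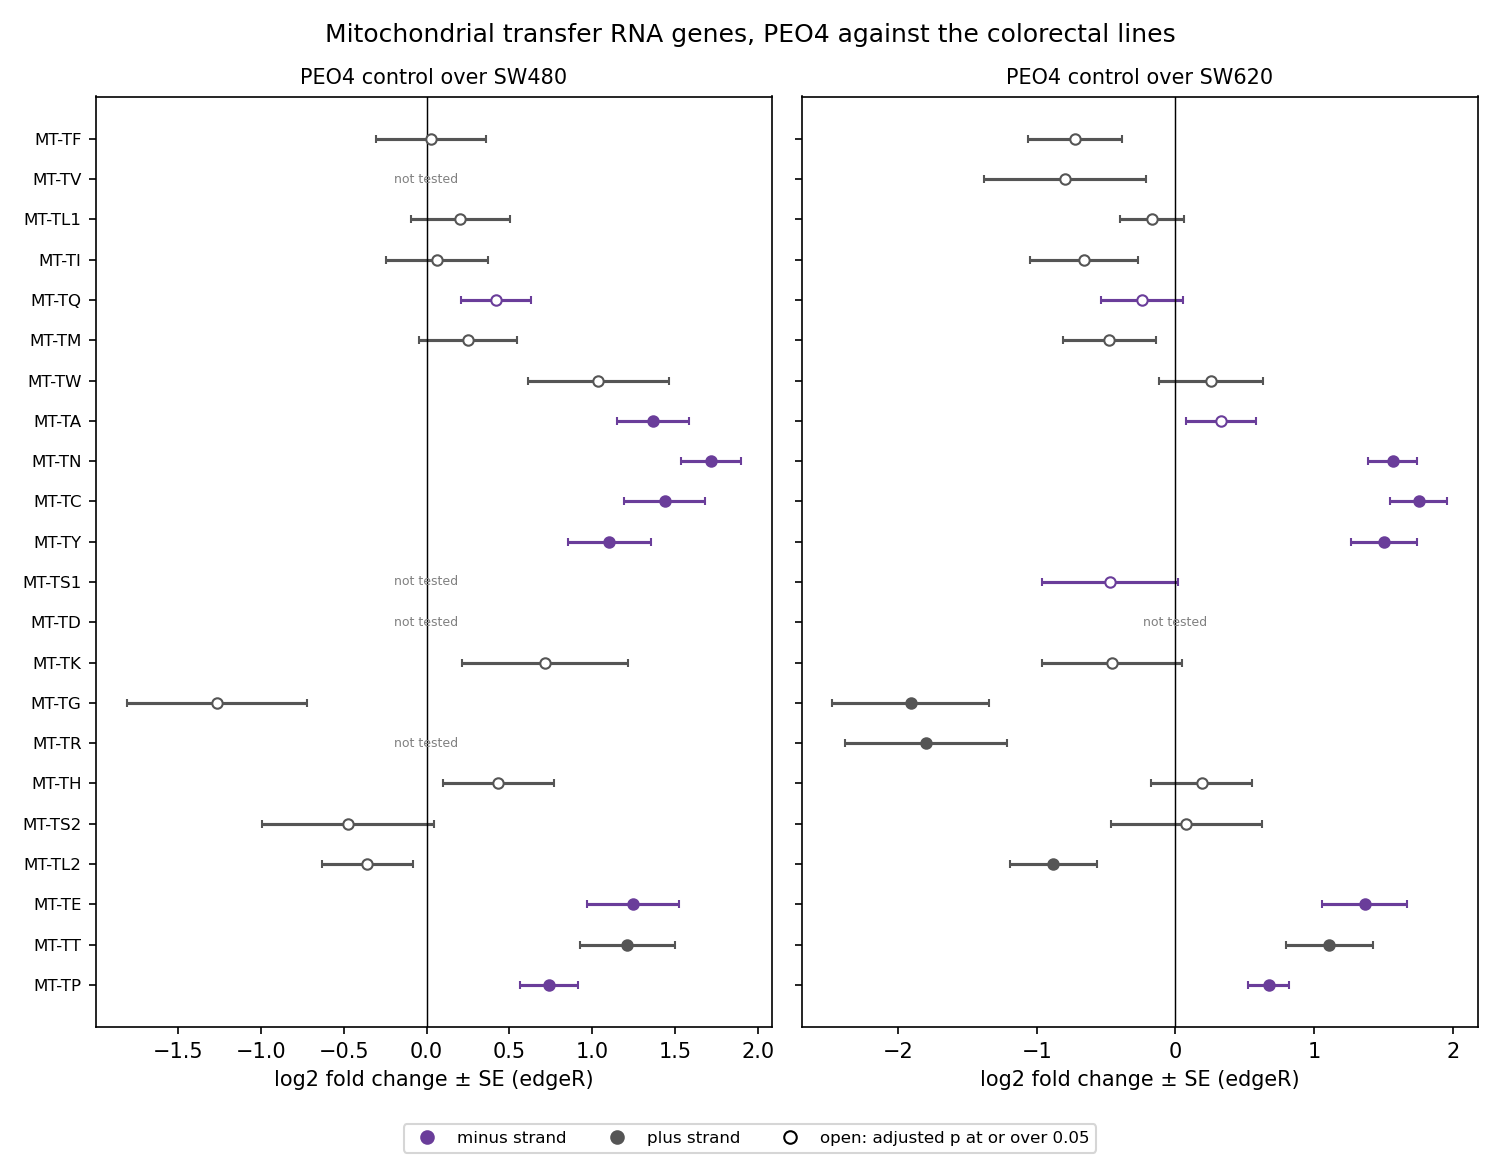
Log2 fold change with its SE (x axis) of control PEO4 over SW480 (left) and over SW620 (right) for the 22 mitochondrial transfer RNA genes, from edgeR fits to all genes. Purple marks the minus strand, filled points passed an adjusted p of 0.05, and the horizontal scales differ. The filled points right of 0 are minus-strand genes and MT-TT, from 0.67 to 1.75, and those left of 0, in the SW620 panel alone, are MT-TG, MT-TR and MT-TL2.

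Taken against the messenger RNA pool, in place of all RNA, 6 transfer RNAs rose over SW480 and 1 (MT-TG) fell, beside 17.5% and 34.3% of all genes tested. Over SW620, 4 rose and 6 fell, beside 16.2% and 41.1%, and none of these percentages is a like background for genes of mitochondrial DNA. MT-TN, MT-TC, MT-TY and MT-TE passed in both, at 1.45 ± 0.33, 1.21 ± 0.34, 0.87 ± 0.33 and 0.99 ± 0.34 over SW480 and at 1.09 ± 0.36, 1.31 ± 0.35, 1.06 ± 0.33 and 0.91 ± 0.37 over SW620 (SE, log2). MT-TP did not pass on this scale, at 0.48 ± 0.33 and 0.19 ± 0.33 (edgeR adjusted p = 0.219 and 0.629). The 6 that fell over SW620 were MT-TF, MT-TG, MT-TI, MT-TL2, MT-TM and MT-TR, all of the plus strand. The median of all genes tested was -0.36 over SW480 and -0.62 over SW620 on this scale, so part of each negative value is shared by most genes.

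Some of these calls rested on single libraries. Over SW480, MT-TY was lost without any 1 control PEO4 library (edgeR adjusted p = 0.0518 to 0.0986), MT-TE without PEO4 control replicate 2 (0.0809), and MT-TT without PEO4 control replicate 1 or 2 (0.0713 and 0.117). MT-TG was lost without PEO4 control replicate 2 or SW480 replicate 1 (edgeR adjusted p = 0.0754 and 0.0590). Over SW620, MT-TN had an edgeR adjusted p of 0.0514 without PEO4 control replicate 1, and MT-TE was lost without PEO4 control replicate 2 or 3 or SW620 replicate 1 or 2 (0.0521 to 0.154). MT-TF was lost without PEO4 control replicate 1 or SW620 replicate 1 (edgeR adjusted p = 0.05001 and 0.121) and MT-TR without PEO4 control replicate 1 (0.0617). MT-TI was lost without PEO4 control replicate 1 or 2 or SW620 replicate 2, and MT-TM without those or PEO4 control replicate 3 (edgeR adjusted p = 0.0748 to 0.1496). MT-TC passed in every such fit of both contrasts.

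Messenger RNAs of PEO4 and the SW lines differed less, and MT-CYB stood apart. MT-CYB took 3.98%, 3.98% and 3.67% of the pool in control PEO4 and 3.89%, 3.86% and 3.47% with TGF-β. In SW480 it took 7.90%, 7.36% and 8.31%, and in SW620 6.70%, 6.69% and 6.97%. The 4 groups fall into 2 separate ranges, and SW480 and SW620 do not overlap either. In shares of the pool, 9 of 13 messenger RNAs did not overlap between control PEO4 and SW480 and 12 of 13 between control PEO4 and SW620. Among all genes tested 57.0% and 59.3% did not, and neither is a like background for genes of the pool. Relative to the pool the log2 difference of control PEO4 was -1.02 ± 0.28 (SE) from SW480 and -0.81 ± 0.34 from SW620 (edgeR adjusted p = 0.000845 and 0.0328). It was the only 1 of 13 messenger RNAs called on this scale in either contrast, beside 51.8% and 57.3% of all genes tested. The call against SW620 was kept only when SW620 replicate 2 was left out, with adjusted p of 0.0501 to 0.138 without each of the other 5 libraries.

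Relative to all RNA, MT-CYB fell in PEO4 against SW480 by 0.75 ± 0.21 on the log2 scale (edgeR adjusted p = 0.00854), and without PEO4 control replicate 3 the adjusted p was 0.0566. Against SW620 the value was -0.36 ± 0.25 (edgeR adjusted p = 0.243). The ratio of MT-CYB to MT-CO1 counts (mean ± SD of 3 libraries) was 0.137 ± 0.0105 in control PEO4 and 0.133 ± 0.0132 with TGF-β. SW480 had 0.345 ± 0.0247 and SW620 0.275 ± 0.0232. MT-CO1 itself took 28.3% ± 0.905 of the pool in control PEO4 and 28.2% ± 1.25 with TGF-β, where SW480 had 22.8% ± 0.330 and SW620 24.8% ± 1.76. All 6 PEO4 libraries lay above the 6 SW libraries in that share, the closest being 26.84% with TGF-β and 26.78% in SW620 replicate 1.

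Several complex I messages and MT-CO1 were called higher in PEO4 relative to all RNA, and the calls, though not the direction, were lost with total counts as library size. MT-CO1 rose over SW480 by 0.57 ± 0.23 (SE, log2; edgeR adjusted p = 0.0469), which with MT-CYB makes 2 of 13 called beside 61.9% of all genes tested. MT-ND4, MT-ND4L, MT-ND5 and MT-ND6 rose over SW620 by 0.79, 0.73, 0.67 and 0.63 (edgeR adjusted p = 0.0371, 0.0308, 0.0499 and 0.0433), or 4 of 13 beside 56.9%. With total counts as library size 0 of these 5 rises passed, at 0.34 for MT-CO1 and 0.61, 0.54, 0.49 and 0.45 for the others, and the median of all genes tested moved from -0.05 to -0.28 against SW480 and from -0.14 to -0.31 against SW620. On that scale the share of called genes that were higher in PEO4 went from 48.7% to 38.8% and from 46.5% to 40.0%. MT-CO1 was also not called without any 1 of the 3 control libraries or without SW480 replicate 1 (adjusted p from 0.0806 to 0.171). The MT-ND4, MT-ND5 and MT-ND6 calls were lost without any 1 of the 3 control libraries or SW620 replicate 1, with adjusted p of 0.0553 to 0.172. That of MT-ND4L was lost without PEO4 control replicate 1 or 2 or SW620 replicate 1 (0.0835 to 0.112).

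Rows annotated as copies of mitochondrial DNA in nuclear chromosomes can share reads with these genes. The 405 such rows summed to 0.933 to 1.72 counts per 1000 counts of the 35 genes in each library. MTATP6P1 (934 to 1396 counts), MTND2P28 (482 to 745) and MTCO1P12 (98 to 224) were the largest of those inspected. The median was 1.15 per 1000 over the 12 libraries, and SW libraries ranged from 1.14 to 1.72 where PEO4 libraries ranged from 0.933 to 1.16. Reads placed equally well in both genomes were handled upstream of the counts, and their part in any difference above was not tested.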

How the data were processed

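RNA-seq counts of 12 libraries were analysed. Per the submitters' processing notes, Trimmomatic 0.36, STAR 2.5.2b, featureCounts (Subread 1.5.2), DESeq2 and GRCh38 were named, with no settings. The authors deposited whole-number counts per gene for 57500 Ensembl IDs, 485 of them without a symbol, and 0 columns could not be mapped to a sample. Their deposited comparison tables hold log2 fold changes with raw and adjusted p-values and, per the file headers, a normalised signal per library that was not used. Positions and sequences came from GENCODE 29 (GRCh38), an annotation the labels do not name.

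The fit of a comparison took its 6 libraries and the whole table, with edgeR 4.0.16 (R 4.3.3), using filterByExpr, TMM scaling, the two-sided quasi-likelihood test and Benjamini-Hochberg adjustment, with a threshold of 0.05. The standard error was the log2 fold change over the square root of F. A second fit used the summed counts of the 13 messenger RNAs as library size, without TMM. CPM values use library totals (14531420 to 22028956 counts), log2 fold changes the scaled ones. Intervals are 95% Wilson intervals, and floors are 3 counts. Sums over genes carry no test. The scripts were tested on simulated data.

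The genes, lists and tests were chosen with earlier results of these data known. All messenger RNAs were named, with those transfer RNAs that passed in any fit or were among the 5 highest, and of each nuclear list the 3 smallest adjusted p that passed, plus POLRMT, TFAM and LRPPRC. The 2 contrasts of PEO4 with the SW lines, and their alternatives, were added after the values were seen. Alternatives were DESeq2 1.42.0, its size factors, total counts, scaling from other genes, no filter, all 12 libraries in 1 model, a replicate block and leaving out each library. Same-numbered replicates did not all deviate together (correlations 0.02, 0.66 and 0.56 in the SW lines and 0.29, -0.14 and 0.48 in PEO4), so the numbers were not taken as pairs.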

Additional observations from a re-analysis of the deposited data

How the results depend on the processing

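Several alternatives left the count of called members unchanged at 1 between the SW lines and 0 after TGF-β. They were RLE size factors, total counts, scaling from genes other than those of mitochondrial DNA, and DESeq2. The mean shares of library counts moved by less than 1 SD under every denominator. Leaving out each library gave moves under 1 SD too, but this could not have come out otherwise. In a group of 3 libraries, leaving 1 out cannot move the mean by 1 SD. The stability of the shares against single libraries was therefore not tested. Between the SW lines, no filter and a model of all 12 libraries each gave 2 called members. With a replicate block 13 members and 10667 genes passed between the SW lines (12 and 11595 relative to the messenger RNA pool). On the scale of all RNA these included 7 messenger RNAs, all lower in SW620, namely MT-ND3, MT-ND4, MT-ND4L, MT-CYB, MT-CO2, MT-ATP6 and MT-ATP8 (edgeR adjusted p = 0.00255 to 0.0350). The block gave 2 members (MT-TA and MT-TN) and 2102 genes after TGF-β (1 and 2076 relative to the pool). In the nuclear lists between the SW lines the block gave 8 higher and 1 lower for transcription and maintenance, 14 and 4 for RNA processing, 24 and 12 for mitoribosomal proteins and 4 and 3 for biogenesis regulators, with 9 synthetases higher, and after TGF-β 3 biogenesis regulators lower. All 12 libraries in 1 model gave 15 higher and 9 lower mitoribosomal genes between the SW lines. In the SW lines replicates 2 and 3 correlated best with their own number and replicate 1 of SW480 did not, so the labels' numbers were not read as pairs. After TGF-β the count of genes was 922 with DESeq2, 1457 with no filter and 165 with all 12 libraries. The added contrasts were not run with a block, DESeq2, no filter or all 12 libraries.

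Leaving out 1 library at a time gave 4253 (without SW480 replicate 1) to 7419 called genes between the SW lines, and 0 to 2 members, with 0 without SW480 replicate 1 or 3 or SW620 replicate 2 and 2 without SW620 replicate 3. Relative to the pool it gave 0 to 3 members. After TGF-β it gave 72 (without control replicate 2) to 1080 (without control replicate 1) called genes, and 167 to 864 relative to the pool, with 0 members throughout. Over SW480, PEO4 had 8 to 15 called members, 15 without SW480 replicate 2, and 4 to 8 relative to the pool, 4 without control replicate 2. Over SW620 it had 6 to 15, 6 without control replicate 1 or 2, and 5 to 12 relative to the pool, 5 without control replicate 1.

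Signs that turned belonged to uncalled values near 0, and the cause was not tested. Between the SW lines total counts gave MT-ND1 0.024, MT-CO3 0.036 and MT-TP 0.010. MT-TT was at -0.020 with scaling from other genes, -0.00903 with all 12 libraries and -0.0075 with the block, and MT-ND5 relative to the pool at -0.000474 with the block. After TGF-β, MT-TF was at 0.000481 with scaling from other genes, 0.011 with DESeq2, 0.023 with no filter and 0.035 with all 12 libraries, and MT-CO1 at 0.0025 and 0.010 in the last 2 of these.

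With 1 library left out, the log2 ranges that crossed 0 between the SW lines were MT-TN -0.058 to 0.23, MT-TT -0.32 to 0.20, MT-ND1 -0.18 to 0.20, MT-CO3 -0.14 to 0.14, MT-TP -0.18 to 0.079, MT-ND2 -0.28 to 0.079 and MT-TE -0.55 to 0.063. Relative to the pool they were MT-ND3 -0.11 to 0.048, MT-ND5 -0.033 to 0.029, MT-ND6 -0.0079 to 0.043, MT-TC -0.24 to 0.035 and MT-TE -0.19 to 0.23. After TGF-β they were MT-ND6 -0.14 to 0.057, MT-TE -0.12 to 0.27, MT-TL2 -0.33 to 0.50, MT-ND2 -0.17 to 0.021, MT-ND3 -0.10 to 0.043, MT-ND5 -0.15 to 0.046, MT-CYB -0.17 to 0.048, MT-CO1 -0.090 to 0.050, MT-CO3 -0.17 to 0.039, MT-TF -0.23 to 0.20, MT-TG -0.14 to 1.23, MT-TP -0.12 to 0.032, MT-TT -0.40 to 0.050, MT-CO2 -0.0011 to 0.16, MT-TC -0.091 to 0.18 and MT-TY -0.025 to 0.30. Relative to the pool after TGF-β they were MT-ND5 -0.098 to 0.015, MT-ND6 -0.065 to 0.019, MT-TE -0.087 to 0.21, MT-TF -0.14 to 0.17, MT-TG -0.21 to 1.32, MT-TL2 -0.42 to 0.63, MT-CO1 -0.026 to 0.034, MT-TP -0.099 to 0.039 and MT-TC -0.017 to 0.13. Few counts lay behind several transfer RNAs (MT-TR had 2 to 9 in control PEO4), which limits their precision.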
